A study of Mus musculus with 2 samples.

Results

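The 10 genes described here handle calcium in muscle cells, 8 of them in the heart muscle cell and *Ryr1* and *Atp2a1* as the skeletal muscle forms, and were listed by name: *Ryr1*, *Ryr2*, *Atp2a1*, *Atp2a2*, *Pln*, *Casq2*, *Cacna1c*, *Slc8a1*, *Jph2* and *Trdn*, out of 21938 protein-coding genes of GENCODE M21 (GRCm38/mm10). Open chromatin was profiled by ATAC-seq, in which a transposase inserts sequencing adapters into accessible DNA, in hearts of wildtype (WT) FVB mouse embryos at E11.5. Each of the 2 replicates was made from a pair of whole hearts, so the nuclei of all heart cell types were mixed and chromatin that was open in few cells cannot be told apart from chromatin that was weakly open in many. Both samples form a single group with no control, treatment or second stage, and values were therefore compared between genes and not between conditions. ATAC-seq reads accessibility and not transcription.

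In a heart muscle cell, an action potential opens the L-type calcium channel, whose pore is encoded by *Cacna1c*, and the entering calcium triggers release of much more calcium from the sarcoplasmic reticulum through ryanodine receptors. *Ryr2* encodes the ryanodine receptor of the heart and *Ryr1* that of skeletal muscle. Calcium is returned to the store by SERCA pumps, of which *Atp2a2* encodes the cardiac and *Atp2a1* the fast skeletal muscle form, and phospholamban (*Pln*) inhibits the pump. Calsequestrin 2 (*Casq2*) buffers calcium inside the store, triadin (*Trdn*) anchors it at the release channel, junctophilin 2 (*Jph2*) holds the store membrane close to the cell membrane, and the sodium-calcium exchanger (*Slc8a1*) moves calcium out of the cell.

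Replicate 1 had 118027 peaks and replicate 2 had 114783, and the part of a replicate 1 peak covered by a replicate 2 peak, by at least 1 bp, was taken as a shared region. This gave 98924 shared regions, of which 216 lay in the loci of the 10 genes (gene body plus 50 kb on each side, 3242 kb in all). The level of a region is the fold enrichment that the authors' peak caller gave to the highest peak overlapping it in each replicate: the reads stacked at the peak summit over a genome-wide background of 2.68 reads (replicate 1) or 2.98 reads (replicate 2), with 1 added to both. Levels are given as replicate 1 and replicate 2. Median fold enrichment over all peaks was 5.70 and 5.03, and the lowest summits held 9 reads in either replicate, so weaker sites were not detectable at this depth. As a check of the tissue, markers were counted by a shared region within 1 kb of an annotated start, which 67.6% of all protein-coding genes had. All 8 cardiomyocyte markers (*Nkx2-5*, *Tnnt2*, *Myh6*, *Myh7*, *Actc1*, *Myl7*, *Tnni1*, *Tnni3*) had one, with 12.0 to 29.1 and 9.30 to 23.6. All 4 endothelial markers (*Pecam1*, *Cdh5*, *Tek*, *Kdr*) had one, with 4.89 to 16.8 and 3.77 to 16.1, lowest in *Pecam1*. All 3 red blood cell markers (*Hbb-bh1*, *Hba-x*, *Klf1*) had one, with 15.8 to 21.7 and 14.8 to 35.2. Of 8 skeletal muscle genes, 4 had one and *Myf5*, *Myog*, *Pax7* and *Myh4* had none. The 4 were *Myod1* (4.89 and 5.53), *Tnni2* (7.88 and 5.28), *Ckm* (17.4 and 19.6) and *Actn3* (35.6 and 28.7). The region of *Ckm* also lay within 1 kb of a start of *Klc3*, and that of *Actn3* within 1 kb of a start of *Zdhhc24*. At its principal start *Ckm* had a separate region with 16.8 and 10.1. Of 4 hepatocyte genes, *Ttr* (4.89 and 3.77) had a region and *Alb*, *Afp* and *Apoa1* had none. Of 4 neuronal genes, *Syt1* (25.8 and 23.1), *Snap25* (18.2 and 13.3) and *Stmn2* (4.62 and 3.52) had one and *Rbfox3* had none.

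The sequences immediately upstream of the start are shown for the genes whose starts are contrasted below, to show how differently they are built. Each run is the 150 bases before the principal start, the start with the highest APPRIS annotation level, read 5′ to 3′ along the gene from GRCm38. They lie at chr13:12106946-12107095 (*Ryr2*, minus strand), chr7:29125152-29125301 (*Ryr1*, minus), chr5:122502226-122502375 (*Atp2a2*, minus), chr7:126463109-126463258 (*Atp2a1*, minus) and chr10:53337517-53337666 (*Pln*, plus). Capitals mark a match, on either strand, to one of 7 short motifs of muscle and heart transcription factors that are named further on.
Ryr2 upstream: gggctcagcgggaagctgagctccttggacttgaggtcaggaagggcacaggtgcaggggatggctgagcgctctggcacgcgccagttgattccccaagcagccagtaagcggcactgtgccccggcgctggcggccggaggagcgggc
Ryr1 upstream: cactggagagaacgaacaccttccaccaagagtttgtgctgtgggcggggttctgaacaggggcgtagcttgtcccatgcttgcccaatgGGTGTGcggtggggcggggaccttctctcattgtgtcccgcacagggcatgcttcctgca
Atp2a2 upstream: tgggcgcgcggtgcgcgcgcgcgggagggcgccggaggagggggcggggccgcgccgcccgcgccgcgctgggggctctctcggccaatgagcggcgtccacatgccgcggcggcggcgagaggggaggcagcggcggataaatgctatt
Atp2a1 upstream: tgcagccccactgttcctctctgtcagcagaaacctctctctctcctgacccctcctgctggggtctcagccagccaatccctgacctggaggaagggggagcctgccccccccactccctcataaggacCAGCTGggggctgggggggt
Pln upstream: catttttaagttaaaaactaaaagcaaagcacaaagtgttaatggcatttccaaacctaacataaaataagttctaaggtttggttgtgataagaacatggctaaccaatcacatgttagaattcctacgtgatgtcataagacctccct
The *Atp2a2* run held 28 CpG dinucleotides and 79.3% G and C, and the *Ryr2* run 10 CpG and 68.7%. The *Ryr1* run held 6 CpG and 60% G and C, the *Atp2a1* run 0 CpG and 65.3%, and the *Pln* run 1 CpG and 33.3%. The cardiac form was the richer in CpG in both pairs, the release channels and the pumps.

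At the gene starts, 9 of the 10 genes had a shared region within 1 kb of at least 1 annotated start, against 67.6% of all protein-coding genes, and *Atp2a1* had none. The principal start had one in the same 9 genes, against 64.2% of all protein-coding genes. Counted over distinct starts, 39 of 63 had a region, against 58.0% of the 93513 starts of all protein-coding genes. Every annotated start had one in *Atp2a2* (5 of 5), *Pln* (4 of 4), *Slc8a1* (4 of 4) and *Jph2* (2 of 2), against 28.8% of all genes. Starts of coding transcripts had a region in 31 of 39 cases, against 63.6% of such starts of all protein-coding genes, and starts of noncoding transcripts in 8 of 24, against 50.4%. No test of these shares was made, since the 10 genes were named and are not a sample.

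The release channels differed at their starts. At the principal start of *Ryr2* a shared region of 2083 bp (chr13:12105123-12107205) had a fold enrichment of 23.9 and 19.1, and at that of *Ryr1* a region of 398 bp (chr7:29125023-29125420) had 9.24 and 8.04. These values correspond to 87 and 75 reads at the *Ryr2* summit (exact Poisson 95% intervals 69.7 to 107 and 59.0 to 94.0, which cover counting error only) and to 33 and 31 reads at the *Ryr1* summit (22.7 to 46.3 and 21.1 to 44.0). Both replicates of *Ryr2* were above both of *Ryr1*, their counting intervals did not overlap, and the mean was 21.5 ± 3.39 against 8.64 ± 0.842 (SD, n = 2). *Ryr2* was 2.59 and 2.38 times *Ryr1* in the respective replicates, a difference of 12.9 ± 2.55 (SD, n = 2). An exact permutation test over 2 replicates cannot give a small p, and none was made. The summits of the *Ryr2* region lay 94 and 95 bp downstream of the start and those of the *Ryr1* region 34 and 66 bp upstream.

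The other annotated starts of the release channels lie inside the genes. In *Ryr2*, 2 of 12 starts had a region, the principal start and a retained-intron start 486 bp into the gene that falls in the same region, and the other 10, among them both remaining coding starts, had none. At the pair of retained-intron starts near the 3′ end replicate 1 alone had a peak (4.62). In *Ryr1*, 4 of 7 starts had a region, all of them in the cluster at the 5′ end of the gene, and the 3 internal retained-intron starts had no peak in either replicate. *Ryr3*, a ryanodine receptor found in many tissues at low level, had 23.6 and 23.4 at its principal start, so its level overlapped that of *Ryr2* and was above that of *Ryr1* in both replicates.

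Among the pumps, *Atp2a2* had the highest start of the 10 genes, with 32.6 and 29.7 in a region of 1771 bp (chr5:122501170-122502940) and summits at the same base in both replicates, 77 bp upstream of the start. Its summit held 119 and 117 reads (98.6 to 142 and 96.8 to 140). *Atp2a1* had no peak in either replicate within 1 kb of either of its coding starts, where a summit of fewer reads than the 9 of the lowest peaks would not be listed. The nearest shared region lay 1990 bp upstream of its principal start at chr7:126465098-126465287, with 6.25 and 3.52, and no shared region lay in its 17.3 kb gene body. *Atp2a3*, the pump of many non-muscle cells, had 9.51 and 10.1. The cardiac form was thus above both other pumps in both replicates, 3.43 and 2.95 times the level of *Atp2a3*.

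The pump inhibitor *Pln* had 12.5 and 8.55 at its start region (chr10:53337180-53337961), which covered all 4 annotated starts. Sarcolipin (*Sln*), the related inhibitor of atrial and skeletal muscle, had no shared region at its start. The principal start of the calcium buffer *Casq2* had a region of 82 bp with 5.16 and 3.27, and its highest start region, with 12.0 and 17.3, was at a retained-intron start close to the 3′ end of the gene, where the summits of the replicates lay 830 bp apart. The skeletal muscle form *Casq1* had 16.8 and 14.1 at its principal start, above that of *Casq2* in both replicates.

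The channel and exchanger genes had regions at several starts. *Cacna1c* had 23.1 and 18.9 at its first cluster of 4 starts (chr6:119196283-119197173), 12.5 and 10.3 at a second cluster of 4 starts, with a region 87.0 kb along the gene (chr6:119108204-119109762), 3.26 and 4.53 at a start 438 kb along, and no shared region at 5 other starts, of which 2 are coding. The skeletal muscle channel *Cacna1s* had 14.4 and 8.80, in a region that also lay within 1 kb of a start of *Ascl5*. *Slc8a1* had 22.0 and 14.8 at its first start (chr17:81737826-81738774), 16.3 and 13.6 at a second start 68190 bp along (chr17:81668796-81670837), and 3.53 and 4.02 near 2 further starts. For the exchanger the ranges of the first and the second start overlapped. *Slc8a2*, which is known from brain, had 22.0 and 20.1, and *Slc8a3* had 8.42 and 8.04, below *Slc8a1* in both replicates.

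Of the genes of the junction between store and cell membrane, *Jph2* had 23.4 and 23.9 (chr2:163397039-163398645) and *Trdn* had 14.4 and 11.3 (chr10:33083066-33084173). The first annotated start of *Trdn*, 2512 bp upstream of this region, and its 2 internal starts had no peak in either replicate. The paralog *Jph1* had 40.7 and 38.0, above *Jph2*, while *Jph3* (3.53 and 3.27) and *Jph4* (9.24 and 6.54) were below it in both replicates. *Asph*, which encodes the store protein junctin beside its hydroxylase, had 50.8 and 44.2. In all, 10 of 11 paralogs had a shared region at a start, against 67.6% of all protein-coding genes.

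**Figure D1:**
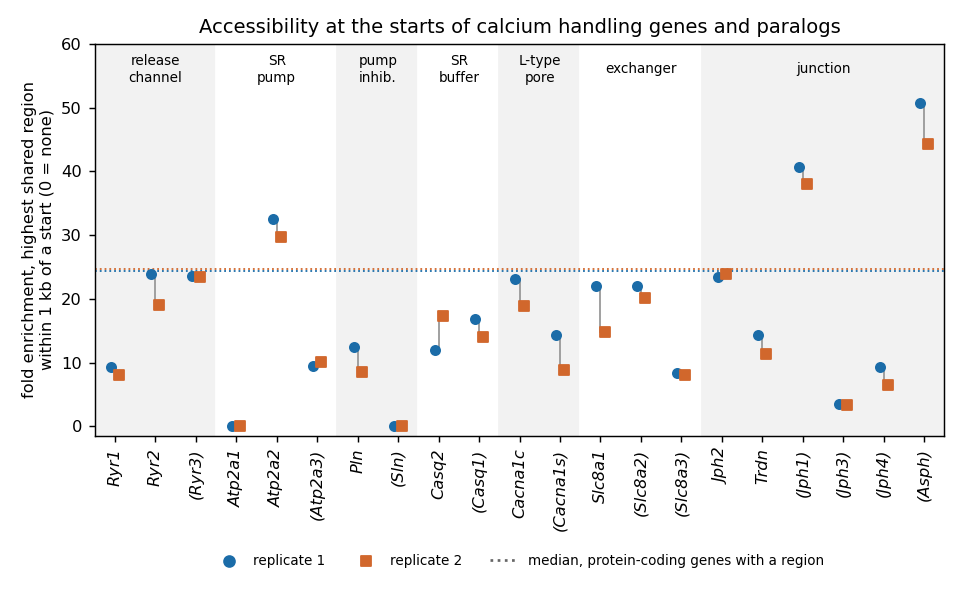
Fold enrichment of the highest shared region within 1 kb of an annotated start (y axis, linear; 0 where there is none) for the 10 calcium handling genes and, in brackets, their paralogs, ordered by role. Circles are replicate 1, squares replicate 2, and the dotted lines are the medians of protein-coding genes with a region, 24.4 and 24.6; *Atp2a2* lies above them and *Ryr2* lies clear of *Ryr1* in both replicates.

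Ordered by mean fold enrichment at the highest start region, the genes ran *Atp2a2*, *Jph2*, *Ryr2*, *Cacna1c*, *Slc8a1*, *Casq2*, *Trdn*, *Pln*, *Ryr1* and *Atp2a1*. Neighbours overlapped between replicates everywhere but at the steps from *Atp2a2* to *Jph2* and from *Ryr1* to *Atp2a1*, so the order between *Jph2* and *Ryr1* is not resolved step by step. At the principal start the order was the same but for *Casq2*, which fell to the ninth place below *Ryr1* without overlap (mean 4.21 ± 1.34 against 8.64 ± 0.842, SD, n = 2). Protein-coding genes with a region had a median of 24.4 and 24.6 (quartiles 14.4 to 33.7 and 13.8 to 33.4), and of the 9 genes only *Atp2a2* was above the median in both replicates. *Ryr1* and *Pln* were below the lower quartile in both. Among all protein-coding genes, those without a region counted at 0, the 9 genes stood between the percentiles 41.1 (*Ryr1*) and 78.8 (*Atp2a2*) of mean fold enrichment.

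Starts of broadly expressed genes are often rich in CpG dinucleotides and open in most tissues, and the starts of the 10 genes were read against this. *Atp2a2* and *Ryr2* had CpG-rich principal starts, with an observed over expected CpG ratio of 1.03 and 0.727 in 1001 bp, at a limit of 0.6. The other 8 were CpG-poor, from 0.132 in *Trdn* to 0.411 in *Ryr1*. Over all protein-coding genes, 10423 of 21938 principal starts were CpG-rich. Of all CpG-rich principal starts 94.6% had a shared region within 1 kb, and of all CpG-poor ones 36.8%. Both CpG-rich starts of the list were open, and of the 8 CpG-poor ones 7 were open and *Atp2a1* (0.171) was not. Median mean fold enrichment of open CpG-poor starts was 13.9 over all protein-coding genes, and that of the 7 open ones of the list was 12.9. *Jph2*, *Cacna1c* and *Slc8a1* were above 13.9 in both replicates, while the means of *Trdn* (12.9), *Pln* (10.5), *Ryr1* (8.64) and *Casq2* (4.21) were below it. *Ryr2* was below the median of 27.8 of open CpG-rich starts in both replicates. The release channels thus differed in start class as well as in level, and these cannot be told apart with 1 gene of each. The pumps *Atp2a2* and *Atp2a1* also differed in both, and the same limit applies to them. *Atp2a3* had a CpG-rich principal start (0.700).

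**Figure D2:**
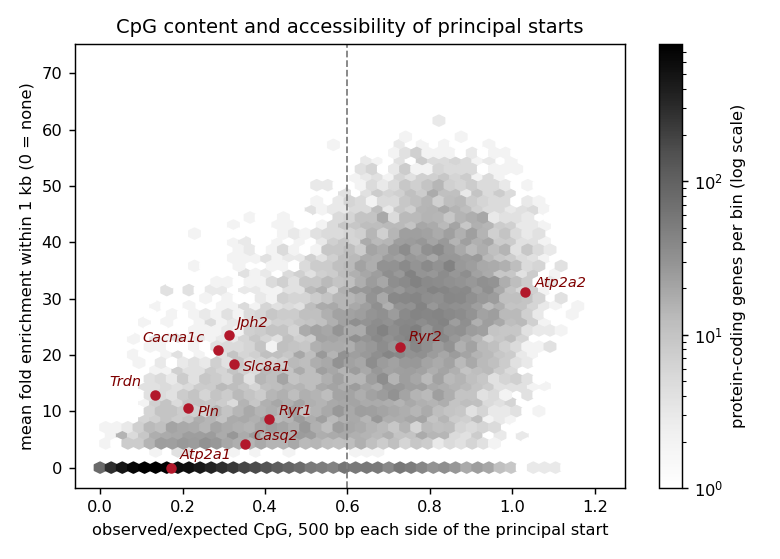
Mean fold enrichment of both replicates within 1 kb of the principal start (y axis; 0 where there is no shared region) against the observed over expected CpG ratio in 1001 bp (x axis). Grey hexagons count all protein-coding genes on a log scale, red points are the 10 calcium handling genes and the dashed line is the limit of 0.6; *Ryr2* and *Atp2a2* lie right of it and the other 8 left of it.

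Across the loci, 216 shared regions fell into 17 at starts of the genes themselves, 21 at starts of other protein-coding genes, 12 over exons, 109 in introns and 57 in the flanks. Density ran from 2.22 regions per 100 kb in *Trdn* to 19.8 in *Jph2*, against a median of 5.41 and quartiles of 2.42 and 8.95 over all protein-coding loci. *Jph2*, *Casq2* (16.2) and *Pln* (14.8) stood at the percentiles 98.6, 96.0 and 94.2 of all loci, and *Trdn* at 24.0. With regions near any protein-coding start left out, the same 3 genes had 17.3, 13.7 and 12.0 per 100 kb, at the percentiles 99.5, 98.5 and 97.3. *Atp2a2*, which had the highest start, had 4.03 per 100 kb, below the median, with 4 regions away from starts, and its 6 regions became 10 when replicate 2 was read alone. Of the 178 regions over 1 kb from any protein-coding start, 20.8% had a mean fold enrichment of 10 or more, against 16.3% of 78019 such regions of the genome, and their median was 5.77 against 5.74.

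**Figure D3:**
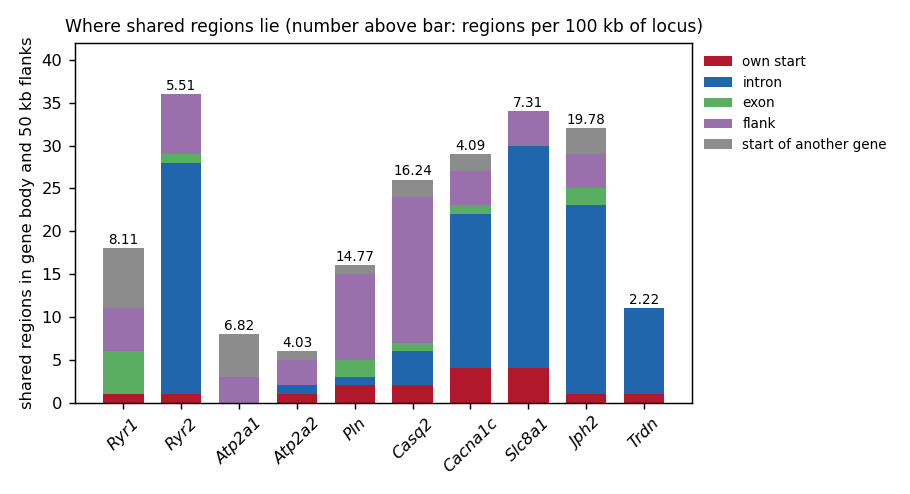
Number of shared regions in each locus (y axis; gene body plus 50 kb on each side) for the 10 genes, stacked by where they lie, with regions per 100 kb of locus above each bar. *Ryr2*, *Cacna1c*, *Slc8a1*, *Jph2* and *Trdn* consist mostly of intron regions, *Pln* and *Casq2* mostly of flank regions, and *Atp2a1* mostly of starts of other genes.

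The contrast of the *Ryr2* and *Ryr1* loci turned on what was counted. The *Ryr2* locus (chr13:11553102-12106945, minus strand, with flanks 654 kb) had 36 shared regions, 5.51 per 100 kb, and the *Ryr1* locus (chr7:29003344-29125179, minus strand, with flanks 222 kb) had 18, 8.11 per 100 kb. Of the 18, 7 were at starts of other genes, *Actn4*, *Eif3k*, *Map4k1*, *Rasgrp4*, *Fam98c*, *Spred3* and *Ggn*, and none of the 36 were. Without them the densities were 5.51 and 4.96, and in the gene bodies alone 29 regions gave 5.24 and 6 regions gave 4.92 per 100 kb, so the sign of the difference turned from −2.61 to 0.547 and 0.311. The density of both genes lay within the quartiles of all protein-coding loci.

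Inside the genes, regions were placed as follows. In *Ryr2*, 27 regions were in introns and 1 over an exon, with its mean summit in it, and exons make up 5.20% of the gene. In *Ryr1*, all 5 regions of the body away from starts overlapped an exon, of which 1 had its mean summit in an exon, and exons make up 17.9% of the gene. By summit this was 1 of 5 in *Ryr1* and 1 of 28 in *Ryr2*, and no difference is read from these counts. The 2 highest of the 5 lay at chr7:29108936-29109470, 16.0 kb into the gene (11.4 and 11.3), and at chr7:29039549-29040600, 85.3 kb into it (12.0 and 9.05). The other 3 had between 4.27 and 5.78. In the *Ryr1* flank the region with the highest mean outside gene starts (chr7:28959449-28961158, 7.33 and 29.2) took its replicate 2 value from a peak whose summit lies at the start of *Actn4*, and the next were chr7:28969864-28970469 (12.8 and 18.9) and chr7:29162712-29163328 (11.1 and 9.05).

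Both loci held regions away from starts that reached the level of the gene's own start. In *Ryr1*, 5 of 10 such regions had a mean fold enrichment of 10 or more, above the *Ryr1* start (8.64), and in *Ryr2* 8 of 35 did, against 16.3% of such regions of the genome. Of these, 1 region in *Ryr1* and 2 in *Ryr2* took the value of 1 replicate from a peak whose summit lies in a neighbouring region. In the *Ryr2* locus, 2 regions with both summits inside them were as high as the *Ryr2* start. The first lay 26.7 kb upstream (chr13:12133325-12134218) and had 24.2 and 23.4. The second lay in an intron 270 kb into the gene (chr13:11836475-11838298) and had 23.1 and 23.4. Both replicate values of either region were within or above the range of the *Ryr2* start and more than the *Ryr1* start in both replicates. A region beyond the 3′ end of the gene (chr13:11549058-11549643) had 17.1 and 14.8. The regions at chr13:12104236-12104955 and chr13:12132962-12133234 took their replicate 1 values of 23.9 and 24.2 from long peaks that also cover the neighbouring region, and in replicate 2, where they are peaks of their own, they had 8.30 and 3.52. The 3′ part of the gene was the emptiest: from 369 to 542 kb along the gene, over 174 kb (chr13:11564462-11738267), there was no shared region. Another stretch of this kind, of 164 kb, lay in *Cacna1c*, and one of 106 kb in *Trdn*.

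**Figure D4:**
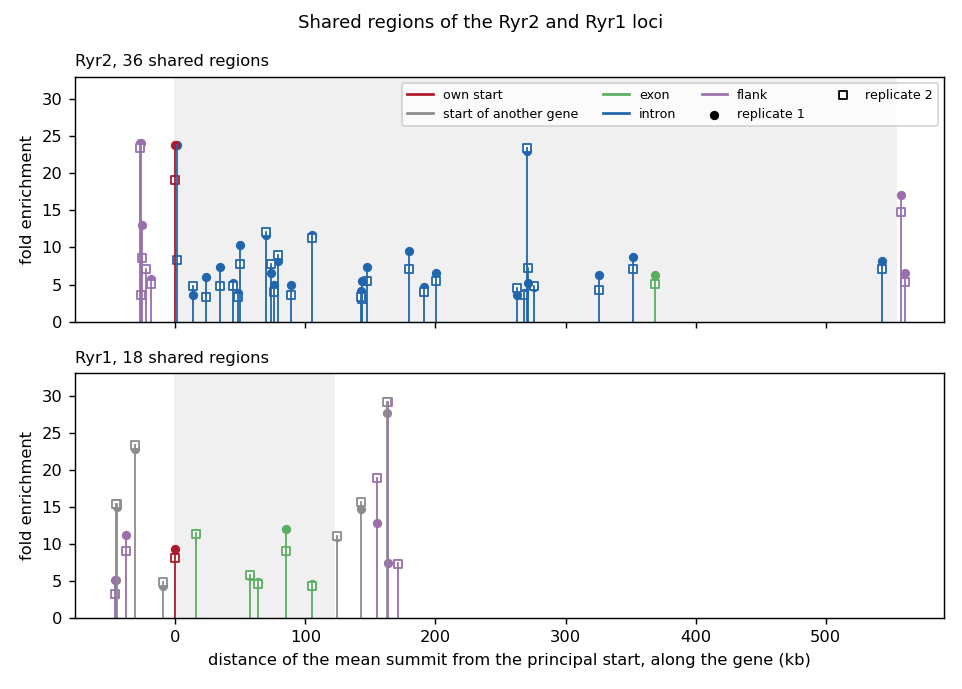
Fold enrichment (y axis) of each shared region of the *Ryr2* and *Ryr1* loci against the distance of its summit from the principal start, along the gene (x axis, kb, same scale in both panels). Filled circles are replicate 1, open squares replicate 2, colours give the class of the region and grey shading the gene body; the *Ryr2* body holds a row of intron regions with one at 270 kb as high as the start, and the highest *Ryr1* values are at the start of *Actn4* (27.7 and 29.2) and, in replicate 2, also in a flank region covered by the same peak (29.2).

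Strong regions away from starts are shown for 6 genes, because their levels reached or overlapped those of the gene's own start. *Ryr1* and *Atp2a1* also had such regions, which are not printed. Each run is 201 bases of GRCm38 around the mean summit of both replicates, read along the strand of the gene. They lie at chr13:12133582-12133782 (*Ryr2* upstream), chr13:11836771-11836971 (*Ryr2* intron), chr10:53324813-53325013 (*Pln* upstream), chr3:102062531-102062731 (*Casq2* upstream), chr2:163356310-163356510 and chr2:163353907-163354107 (*Jph2* intron, first and second), chr6:118997576-118997776 (*Cacna1c* intron) and chr10:33123077-33123277 (*Trdn* intron). Capitals mark matches to the motifs given after them.
Ryr2 upstream region: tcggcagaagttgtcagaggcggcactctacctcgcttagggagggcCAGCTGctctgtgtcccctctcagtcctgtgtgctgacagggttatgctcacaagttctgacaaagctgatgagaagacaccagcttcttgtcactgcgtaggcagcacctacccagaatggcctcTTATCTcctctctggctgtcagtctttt
Ryr2 intron region: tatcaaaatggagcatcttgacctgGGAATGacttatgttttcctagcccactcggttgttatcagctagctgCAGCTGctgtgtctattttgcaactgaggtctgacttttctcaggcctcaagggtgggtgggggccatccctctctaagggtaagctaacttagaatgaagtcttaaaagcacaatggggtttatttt
Pln upstream region: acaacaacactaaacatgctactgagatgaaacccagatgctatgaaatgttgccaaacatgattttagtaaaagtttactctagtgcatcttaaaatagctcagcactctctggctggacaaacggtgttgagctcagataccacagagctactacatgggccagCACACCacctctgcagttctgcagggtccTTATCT
Casq2 upstream region: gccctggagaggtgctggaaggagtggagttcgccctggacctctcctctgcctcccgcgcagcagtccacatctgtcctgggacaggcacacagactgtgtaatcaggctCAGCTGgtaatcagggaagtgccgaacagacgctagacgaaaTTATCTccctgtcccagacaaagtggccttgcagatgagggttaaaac
Jph2 first intron region: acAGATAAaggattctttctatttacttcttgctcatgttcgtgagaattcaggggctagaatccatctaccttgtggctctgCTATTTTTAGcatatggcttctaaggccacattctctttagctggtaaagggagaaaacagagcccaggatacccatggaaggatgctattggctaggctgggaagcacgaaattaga
Jph2 second intron region: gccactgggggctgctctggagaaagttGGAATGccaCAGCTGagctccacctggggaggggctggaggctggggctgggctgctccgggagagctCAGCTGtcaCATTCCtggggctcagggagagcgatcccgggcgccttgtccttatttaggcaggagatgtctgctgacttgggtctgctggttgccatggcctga
Cacna1c intron region: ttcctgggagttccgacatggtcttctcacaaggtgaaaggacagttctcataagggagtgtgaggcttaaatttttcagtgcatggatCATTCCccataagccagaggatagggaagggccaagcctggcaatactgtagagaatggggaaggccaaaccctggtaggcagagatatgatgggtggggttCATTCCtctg
Trdn intron region: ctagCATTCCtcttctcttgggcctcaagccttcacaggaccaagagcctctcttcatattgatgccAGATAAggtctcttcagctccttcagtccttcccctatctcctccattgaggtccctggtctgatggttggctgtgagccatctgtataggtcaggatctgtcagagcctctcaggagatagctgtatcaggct
The motifs searched, on both strands, were AGATAA (bound by GATA factors), GGAATG (TEAD factors), GGTGTG (T-box factors), TNAAGTG (NKX2-5), CAGCTG (an E-box), MEF2 and the CArG box, and none of them contains another. A match is a description of letters and not evidence of binding. The *Ryr2* upstream run held a GATA and an E-box match, the *Ryr2* intron run a TEAD and an E-box match, and the *Pln* run a GATA and a T-box match. The *Casq2* run held a GATA and an E-box match, the first *Jph2* run a GATA and a MEF2 match, the second 2 TEAD and 2 E-box matches, the *Cacna1c* run 2 TEAD matches and the *Trdn* run a GATA and a TEAD match.

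Over the loci, 147 regions away from starts had both summits inside them and were searched in the same 201 bases. GATA letters were in 39 (26.5%), against 20.9% of 68598 such regions of the genome, and TEAD letters in 33 (22.4%), against 16.8%. T-box letters were in 22 (15.0%, against 13.7%), the E-box in 32 (21.8%, against 19.5%), NKX2-5 in 18 (12.2%, against 13.1%), MEF2 in 6 (4.08%, against 4.57%), and the CArG box in 0, against 1.28%. Among the 31 with a mean fold enrichment of 10 or more, 15 held GATA letters (48.4%, against 26.5% of 11473 regions of the genome at that level) and 14 held TEAD letters (45.2%, against 16.1%). The E-box was in 10 of the 31 (32.3%, against 21.7%), T-box letters in 6 (19.4%, against 15.1%) and MEF2 in 3 (9.68%, against 4.38%), while NKX2-5 was in 1 (3.23%, against 12.9%) and the CArG box in 0 (against 1.54%). In *Ryr2*, 12 of 31 regions held GATA letters and 6 held TEAD letters, and in *Ryr1* 1 of 7 and 2 of 7. In the 150 bases before the principal start, GATA letters were found in *Slc8a1* (4.69% of all protein-coding genes), T-box letters in *Ryr1* and *Trdn* (10.4%), the E-box in *Atp2a1* and *Jph2* (7.93%) and the MEF2 motif in *Casq2* (1.46%). None of the 10 genes had TEAD (6.47%), NKX2-5 (5.21%) or CArG (0.843%) letters there. None of these shares was tested.

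*Jph2* had the densest locus. Its body of 61.8 kb (chr2:163336242-163397993) held 25 shared regions, with no stretch above 5.59 kb free of one, and 22 regions were in introns. The 2 highest, 41.6 kb and 44.0 kb into the gene, had 22.0 and 26.9 (chr2:163355749-163357129) and 25.5 and 21.1 (chr2:163353402-163354469), against 23.4 and 23.9 at the start, and the third, next to them, had 17.4 and 16.6 (chr2:163358474-163359924). The replicate ranges of the first 2 spanned the level of the start.

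*Pln* and *Casq2* had their highest regions away from protein-coding starts outside the gene. The *Pln* body is 8.32 kb long (chr10:53337667-53345987) and its highest region lay 12.8 kb upstream (chr10:53324630-53325298), with 24.4 and 21.9, above the start (12.5 and 8.55) in both replicates. Further regions 4.72 kb and 2.21 kb upstream had 11.7 and 10.8, and 13.3 and 8.04. In the flank downstream of *Pln*, the start of *Cep85l* had 34.0 and 32.4. For *Casq2* (chr3:102086415-102146514) the highest lay 23.8 kb upstream (chr3:102061720-102063667), with 19.8 and 26.1, above both of its start regions in both replicates. Beyond the 3′ end, the region with the next highest mean (chr3:102164481-102164674, 4.35 and 30.7) took its replicate 2 value from a peak with its summit at the start of *Vangl1*, and the third (chr3:102169080-102169969) had 19.8 and 11.1.

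The long genes *Cacna1c*, *Slc8a1* and *Trdn* had most regions in introns. *Cacna1c* (chr6:118587240-119196418) had 29 in its locus, 18 of them in introns, and the highest of these, 199 kb into the gene (chr6:118997332-118997860), had 17.4 and 21.4, a range that overlaps that of the first start cluster (23.1 and 18.9) and lies above the second. The next were at chr6:119193505-119194134 (12.5 and 11.3) and chr6:119001478-119001883 (11.4 and 10.3). The start of *Dcp1b*, inside *Cacna1c*, had 28.2 and 30.9. *Slc8a1* (chr17:81373105-81738377) had 34 regions, 26 of them in introns, at a low median of 4.60, and the highest away from starts lay 43.3 kb upstream (chr17:81781369-81782036, 12.0 and 11.3). The next regions were in introns, at chr17:81468931-81469380 (10.6 and 9.30) and chr17:81480375-81480852 (11.7 and 7.29). *Trdn* (chr10:33080554-33476709) had 11 regions, all in the gene body, and the highest away from its start lay 39.7 kb into the gene (chr10:33122883-33123632, 17.1 and 15.6), above the *Trdn* start in both replicates, followed by chr10:33308085-33308646 (13.6 and 9.05) and chr10:33092487-33092776 (8.96 and 6.79).

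The pump loci held few regions away from starts, 3 in *Atp2a1* and 4 in *Atp2a2*. In *Atp2a1* (chr7:126445858-126463108) 5 of 8 regions were at the starts of *Nfatc2ip*, *Rabep2*, *Sh2b1*, *Tufm* and *Atxn2l*, with levels between 21.7 and 48.6, and the other 3 were upstream of the gene: chr7:126482362-126482915 (20.1 and 25.9), chr7:126465667-126466049 (7.33 and 4.02) and the region nearest its start. In *Atp2a2* (chr5:122453513-122502225) the highest of the 4 regions away from starts lay 18.9 kb upstream (chr5:122520744-122521501), with 13.9 and 13.8, below its start in both replicates. The other 3 had between 3.27 and 4.07, among them the region of the *Atp2a2* body at chr5:122471826-122472008 and that of the flank at chr5:122527891-122528200.

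The replicates ranked the regions of the loci alike. Spearman's rho of fold enrichment was 0.756 over the 216 regions, which share a library within each replicate and are not independent. Over all shared regions of the genome it was 0.770. It was 0.867 over the 181 regions of the loci with both summits inside the region. The 35 others include the pieces of long peaks named above. Peaks found in 1 replicate alone were weak: 59 of 263 peaks in the loci in replicate 1 (22.4%), none above 5.70, and 49 of 256 in replicate 2 (19.1%), none above 5.53. Over the whole genome, 81.0% of replicate 1 peaks and 82.8% of replicate 2 peaks were shared.

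**Figure D5:**
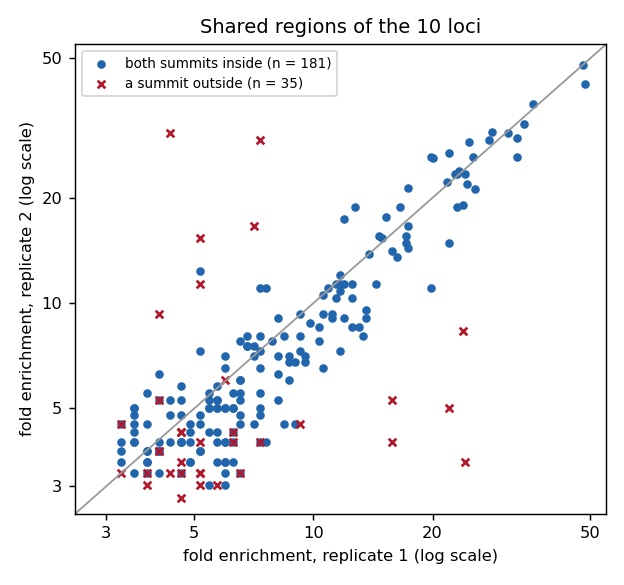
Fold enrichment of the 216 shared regions of the 10 loci in replicate 1 (x axis) and replicate 2 (y axis), both on a log scale, with the line of equal values. Blue circles are the 181 regions that hold both summits and red crosses the 35 where a summit lies outside; the points farthest from the line are crosses.

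Beyond the 10 genes, 36 further genes of calcium handling were read from a list of the release channel's regulators, channel subunits, counter-ion channels and membrane proteins of the store, pumps, mitochondrial uptake, store-operated entry, adrenergic control and T-tubules. Of these, 35 had a shared region at a start, against 67.6% of all protein-coding genes. CpG-rich principal starts were found in 22 of the 36, against 10423 of all 21938 protein-coding genes. All 22 were open, against 94.6% of all CpG-rich principal starts. Of the 14 CpG-poor ones 11 were open, against 36.8% of all CpG-poor principal starts. The gene without a region at a start was *Akap6*, which encodes an anchoring protein of protein kinase A at the nuclear envelope, with 26 regions in its locus and none within 1 kb of either start. The highest were *Prkaca*, the catalytic subunit of protein kinase A (52.7 and 51.8), *Ppp1cb*, a catalytic subunit of protein phosphatase 1 (50.3 and 47.5), and *Atp2b1*, a calcium pump of the plasma membrane (45.9 and 50.0). The 12 regulators of release had a median of 29.1 and 30.9, the 3 L-type channel subunits 22.0 and 18.9, the 3 genes of counter-ion channels and the store membrane 35.6 and 33.4, and the 2 plasma membrane pumps 36.0 and 37.2. The 3 genes of mitochondrial uptake had a median of 38.3 and 35.2, the 2 of store-operated entry 34.8 and 34.9, the 8 adrenergic genes with a region 21.6 and 20.4, and the 2 T-tubule genes 21.2 and 18.4. Some of the highest start regions also lay within 1 kb of a start of another protein-coding gene. They include those that set the store membrane medians and the replicate 2 median of mitochondrial uptake. The 9 open genes of the 10, *Ryr1* included, had a median of 22.0 and 17.3, and the 35 open genes of the further list 26.1 and 28.7, with overlapping ranges (9.24 to 32.6 against 8.96 to 52.7 in replicate 1).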

How the data were processed

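ATAC-seq peak lists of 2 replicates (WT E11.5 hearts, 1 group) were used as deposited. Per the labels and the study's methods, the authors trimmed single-end 50 bp reads with Trim Galore 0.6.6 and cutadapt, aligned them with Bowtie2 2.4.2 to GRCm38/mm10, used SAMtools 1.12 to drop duplicate and poorly mapped reads, so repeats are underrepresented, and called peaks per replicate with MACS2 without a local background. The fold enrichment, as deposited, is a ratio at the summit of a peak. The −log10 p and q values that the authors deposited were used as limits only, and the deposited score column, a rescaled q-value, was not used. The largest p-values, 0.000476 and 0.00104, and the shortest peaks, 200 bp, do not match the looser p limit and the shorter extension given in the methods, so the length to which the reads stacked at a summit were extended is uncertain.

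Shared regions, distances and classes were computed with Python 3.11.15, NumPy 2.4.6, pandas 2.3.3 and SciPy 1.17.1, and plots drawn with Matplotlib 3.10.9. The code was tested on simulated data. A region keeps the highest overlapping peak of each replicate, whose summit may lie outside it. The lists give no read totals: the background came from the steps of the fold enrichment, which also gave summit reads. Intervals are exact Poisson, for counting error only. Regions were classed as at a start of the gene, at another protein-coding start, over an exon, in an intron or in the flank. Other genes were read at their starts only, so a flank region may lie inside another gene. Sequence was read from the RefSeq copy of GRCm38.p6, without bases annotated as untranslated. Gene models were GENCODE M21.

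The genes and lists were chosen with earlier results of these data known. 1 marker gene chosen at first is not reported here. The named regions follow a rule: the highest start region, and the 3 highest regions of each locus away from protein-coding starts (5 for *Ryr1* and *Ryr2*), with neighbouring genes named for *Ryr1*, *Ryr2*, *Pln* and *Atp2a1*. Of the further list, genes without a start region and the 3 highest were named. *Vangl1*, *Dcp1b*, *Ascl5*, *Klc3* and *Zdhhc24*, the printed sequences, the motifs and the limit of 10 were chosen after values were seen. Alternatives were stricter p and q limits, reciprocal overlap, each replicate alone, other windows and flanks, coding transcripts alone and other genes' starts left out. Counting connected peaks once and requiring both summits within 1 kb of a start were added after the data were seen. With 1 group of 2 replicates no test was made.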

Additional observations from a re-analysis of the deposited data

How the results depend on the processing

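The 9 genes with a start region, the 39 starts, the 10 paralogs and the 35 further genes stayed within 1.5 times under each alternative run. Leaving out either replicate gave 9 genes in both cases, 39 to 41 starts and 256 to 263 regions in the loci. The difference of *Ryr2* and *Ryr1* at the start (12.9) is the mean of 14.7 in replicate 1 and 11.1 in replicate 2. The other settings keep or drop regions but do not change the level of a peak. The same 12.9 under them is therefore no measure of its stability. The 216 regions of the loci fell to 97 at a q-value limit of 1e-10 and to 138 in the gene bodies alone.

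The difference of *Ryr2* and *Ryr1* in regions per 100 kb (−2.61) changed sign to 0.311 without flanks, to 0.445 with flanks of 20 kb and to 0.547 without the starts of other genes. The last of these drops 7 regions of *Ryr1* and none of *Ryr2*, while the other settings drop flank regions of both genes and shorten the loci. With flanks of 20 kb, regions at the starts of *Map4k1* and *Rasgrp4* remained in the *Ryr1* locus. It was −5.04 with flanks of 100 kb, −0.966 when peaks had to overlap reciprocally by 50%, and −2.88 to −1.38 with either replicate alone. For single genes, *Casq2* fell to 4.21 at coding starts alone, and *Atp2a1* gained a region of 4.88 with a start window of 2 kb. In all, 237 values stayed, 30 moved and 3 changed sign. No pairing of groups by replicate was possible because there is 1 group. The difference of *Ryr2* and *Ryr1* was already taken within each replicate. A peak list shows no signal below its threshold, so genes without a region may be weakly open.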
